A study of Mus musculus with 6 samples.

Results

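Chaperones and the folding machinery of the endoplasmic reticulum were compared between wild-type and Sept4 knockout hepatic stellate cells from mice with liver cirrhosis. The members were all genes whose array symbol begins with Dnaj, Hsp or Pdia, together with Xbp1, Atf4, Atf6, Ddit3, Calr, Canx, Herpud1, Sel1l, Edem1, Ern1 and Eif2ak3. Of 16446 genes on the array with 1 symbol, 75 met this rule: 37 Dnaj genes, 24 Hsp genes, 4 Pdia genes and 10 of the 11 listed singly. Sel1l was not analysed here, and neither were Hspa1a and Hspa1b, the stress-inducible Hsp70 genes. Where a gene had several probes, its value came from whichever had the highest mean of the 6 arrays.

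Each of the 6 single-colour arrays measured messenger RNA of hepatic stellate cells, the pericytes of the liver that store vitamin A and turn into collagen-producing myofibroblasts in fibrosis. All the mice had cirrhosis brought on by carbon tetrachloride (CCl4), a poison of hepatocytes, so both genotypes carried the same injury and no uninjured liver entered the comparison. There were 3 wild-type and 3 Sept4 knockout samples; Sept4 encodes a septin, a GTP-binding protein that assembles into filaments. The sources used here do not give age, strain or the construction of the knockout. The comparison asks which genes differ in stellate cells that lack Sept4.

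Heat shock proteins bind unfolded protein and help it to fold. Hsp70 proteins work through cycles of ATP hydrolysis that J-domain proteins, encoded by the Dnaj genes, set off by delivering clients, while Hsp90 proteins act on clients later in folding and small heat shock proteins hold them back from aggregating. In the endoplasmic reticulum (ER), where secreted proteins such as collagen are folded, the Hsp70 is BiP, glycoproteins are held by the lectins calnexin and calreticulin, and protein disulfide isomerases form and rearrange disulfide bonds. Unfolded protein in the ER is sensed by IRE1, PERK and ATF6, which act through the transcription factors XBP1, ATF4, CHOP and ATF6 itself to raise expression of folding and degradation genes. Activated stellate cells secrete much collagen and are known to depend on this machinery.

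The arrays gave a normalised log2 signal for 23473 probes, with a median of 5.02 on every array. The highest value lay between 15.7 and 15.8 on wild-type arrays and between 16.6 and 16.8 on knockout arrays, so the upper end of the scale separated the genotypes. Pearson correlations over probes were 0.986 among wild-type arrays, 0.981 to 0.982 among knockout arrays and 0.967 to 0.971 between them. Of the 14 stellate cell markers listed, 13 were measured, and the log2 of their summed signal was 16.42 to 16.58 on wild-type and 16.86 to 16.94 on knockout arrays. The sums for hepatocyte markers (8 of 10 measured) were 11.11 to 11.17 and 11.32 to 11.38, and those for endothelial markers (7 of 8) 7.96 to 8.08 and 8.24 to 8.36. Macrophage markers (8 of 10) summed to 11.32 to 11.42 in wild-type and 11.15 to 11.22 in knockout samples, and cholangiocyte markers (4 of 6) to 10.09 to 10.21 and 8.94 to 9.01. Of the stellate cell markers 9 rose and 3 fell, and of the cholangiocyte markers only Spp1 passed, at -1.26. Of the hepatocyte markers 3 rose and 1 fell, and of the macrophage markers 1 rose and 4 fell. Of the endothelial markers 2 rose, 0 fell and 5 did not pass. The sums follow the brightest markers and need not speak for each marker in a list. None of these markers lay at the lowest value on every array. The stellate, hepatocyte and endothelial sums were thus higher and the macrophage and cholangiocyte sums lower in the knockout, and their part in the differences below was not tested. Sept4 is not named among the probes used, so the genotype was not checked by the deleted gene. Nothing in the labels says that the samples were separate cell isolations, so the p-values reflect only how much these samples vary, and that variation may be technical.

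Of the 75 members, 30 were higher and 13 lower in the knockout at an adjusted p under 0.05 in limma, and 32 did not pass. Over all 16446 genes 29.4% were higher and 14.9% lower, 44.3% in all, against 40% and 17.3% of the members, 57.3% in all. On 55 members the knockout and wild-type arrays did not overlap, which was 73.3% of them, against 57.6% of all genes. The median log2 difference, knockout minus wild type, was 0.17 over the members and 0.14 over all genes, with members between -1.26 and 1.21. More members than genes at large passed, but the members were also brighter, with a median signal of 9.09 against 5.38, and bright genes passed more often. Among the 4176 genes with a mean signal of at least 8, 52.8% were higher and 17.5% lower, and among the 44 members of that kind 52.3% were higher and 22.7% lower. The members' shares were thus near those of genes as bright as they are. Only 3 of the 43 members that passed differed by at least 2-fold: Xbp1 and Hspa14 were higher and Hsp90ab1 was lower. That was 6.98% of the members called, against 14.4% of all genes called. This share was not worked out for bright genes alone, so it does not allow for the members' higher signal. The count of lower members fell from 13 to 8 when wild type replicate 2 was left out.

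**Figure D1:**
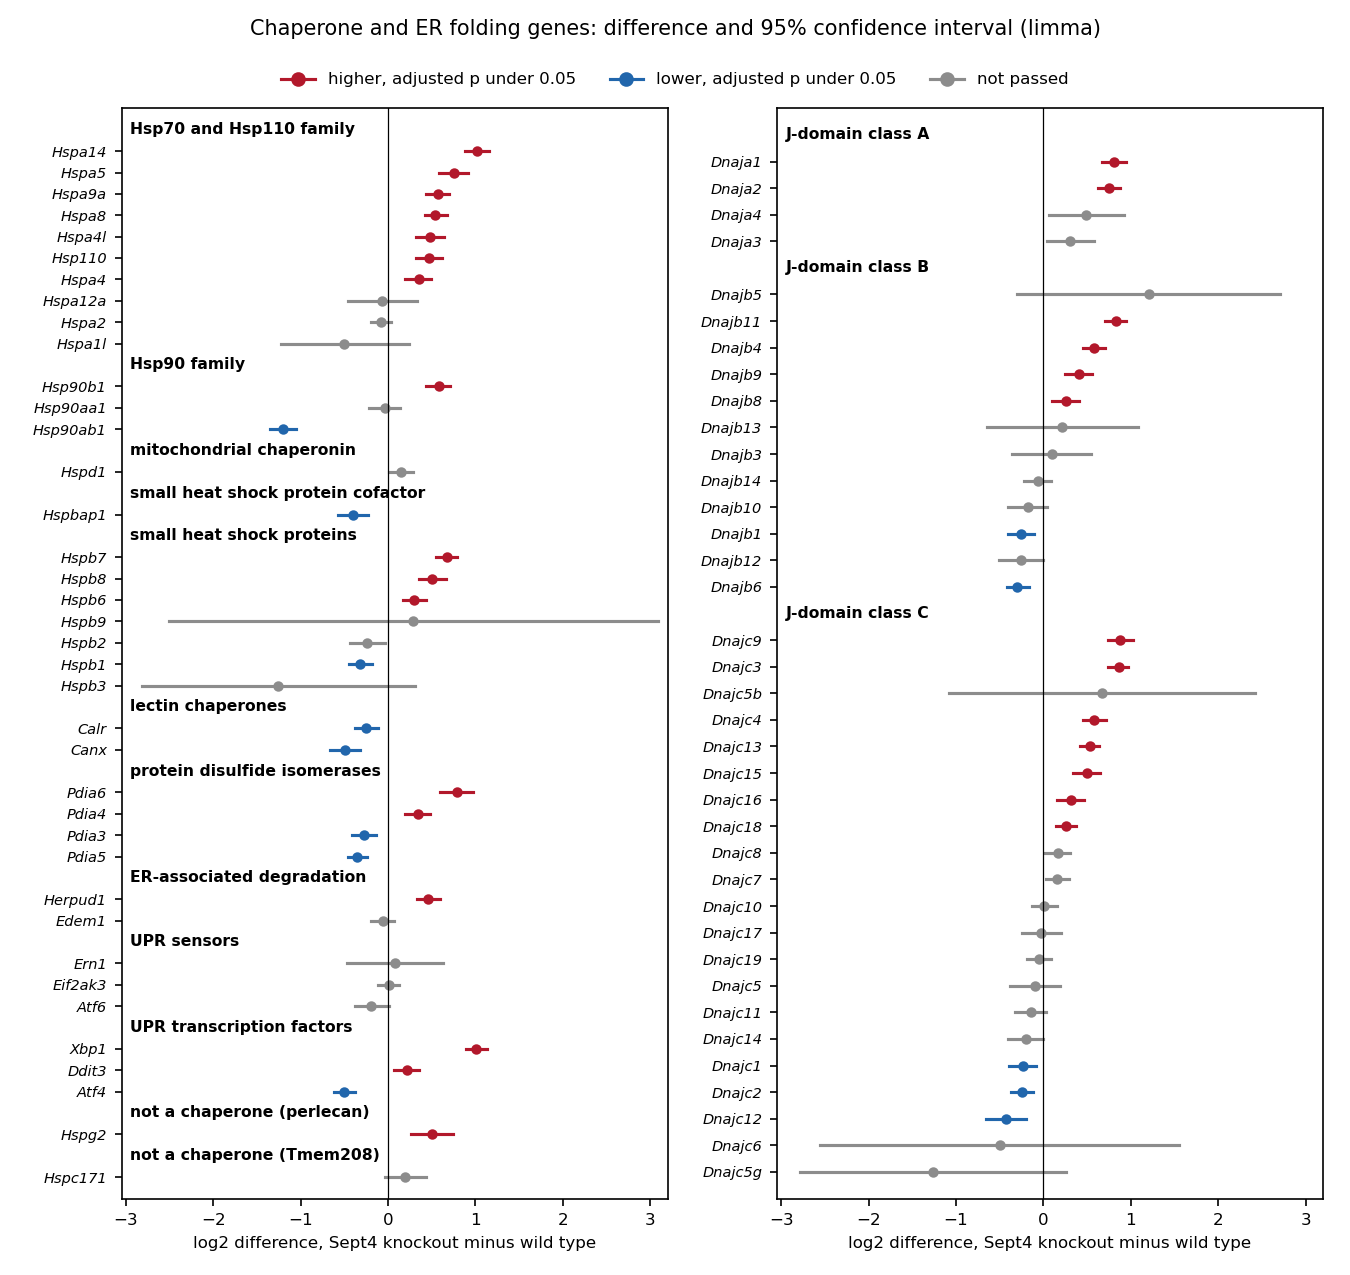
Log2 difference between Sept4 knockout and wild type (horizontal axis) for each of the 75 members, grouped by role; points are the estimates from 3 arrays against 3 and lines the 95% confidence intervals from limma (UPR, unfolded protein response). Coloured genes passed an adjusted p of 0.05 (30 higher, 13 lower); the widest intervals, as for Hspb9 and Dnajc5g, belong to dim genes.

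The ER members moved in both directions. Of 15 ER members, 8 rose, 5 fell and 2 did not pass, with a median log2 difference of 0.34. That is 86.7% passed, against 70.2% of all genes with a mean signal of at least 8. The ER list left out the sensors Ern1, Eif2ak3 and Atf6 and the ER membrane gene Hspc171, which did not pass. With these genes counted as ER members, the share passed would lie below 70.2%. Other members given no compartment here may also belong to the ER, so this share depends on the list. BiP, the ER Hsp90 and 3 of the 5 J-domain genes listed rose, both lectins fell, and of the 4 protein disulfide isomerases 2 rose and 2 fell. In bulk samples like these, fewer cells of a type and less RNA per cell cannot be told apart.

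Hspa5 encodes BiP. Hspa5 read 14.59, 14.65 and 14.55 on the wild-type arrays and 15.25, 15.36 and 15.43 on the knockout arrays. All knockout arrays lay above all wild-type arrays, and the log2 difference was 0.75 ± 0.07 (SE, n = 3 per genotype), or 1.68-fold, with an adjusted p of 0.00112 in limma. Hsp90b1, which encodes the ER Hsp90 GRP94, read 14.32, 14.33 and 14.26 in wild-type and 14.82, 14.89 and 14.93 in knockout samples. It too rose without overlap, by 0.58 ± 0.05 (SE), or 1.49-fold, with an adjusted p of 0.00131.

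Of the 5 J-domain genes listed here as ER genes, 3 rose, 1 fell and 1 did not pass. J-domain genes outside that list may also act in the ER. Dnajc3, whose product p58IPK lies in the ER lumen and is known as an inhibitor of the kinase PKR, read 10.81, 10.87 and 10.84 in wild-type and 11.67, 11.69 and 11.73 in knockout samples. Dnajb11, the abundant BiP partner ERdj3, read 11.03, 11.07 and 11.03 against 11.85, 11.86 and 11.90. For both genes the arrays of a genotype lay close together and the genotypes stood apart, with differences of 0.86 ± 0.05 and 0.83 ± 0.04 (SE), each with an adjusted p of 0.000503. Dnajb9, or ERdj4, which brings misfolded protein and the sensor IRE1 to BiP, rose by a smaller 0.41 from 11.00, 11.01 and 10.92 to 11.31, 11.39 and 11.44, with an adjusted p of 0.00472. Dnajc1, a membrane-bound J protein at the ribosome, fell by 0.23, from 9.41, 9.26 and 9.28 to 9.11, 9.08 and 9.05, with an adjusted p of 0.0313. That call was lost whichever array was left out, with adjusted p from 0.0583 without wild type replicate 2 to 0.0876 without knockout replicate 2. Dnajc10, the disulfide reductase ERdj5, overlapped between genotypes and differed by 0.01 ± 0.06 (SE), with an adjusted p of 0.875.

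The disulfide isomerases did not move together. Pdia6, which works with BiP, read 13.52, 13.43 and 13.29 in wild-type and 14.19, 14.20 and 14.21 in knockout samples. It rose by 0.79 ± 0.07 (SE), or 1.72-fold, with an adjusted p of 0.00126. Pdia4 (ERp72) rose by 0.34, from 9.60, 9.62 and 9.58 to 9.86, 9.94 and 10.01, with an adjusted p of 0.00733. Pdia3 (ERp57), the isomerase that the lectin chaperones recruit to glycoproteins, read 12.60, 12.66 and 12.59 against 12.28, 12.35 and 12.40. It fell by 0.28 without overlap, with an adjusted p of 0.0122. Pdia5 fell by 0.35, from 9.28, 9.32 and 9.29 to 8.92, 8.96 and 8.94, with an adjusted p of 0.00275.

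Calnexin and calreticulin were both lower. Canx read 13.01, 12.99 and 12.83 in wild-type and 12.44, 12.46 and 12.47 in knockout samples, a difference of -0.49 ± 0.07 (SE) or 1.40-fold, with an adjusted p of 0.00374. Calr read 9.254, 9.264 and 9.241 against 8.947, 8.999 and 9.070, with all knockout arrays below all wild-type arrays. Its difference was -0.25, with an adjusted p of 0.0149, which became 0.058 without wild type replicate 2 and 0.0549 without knockout replicate 2. Pdia3, their partner, was thus lower beside them, whereas Hspa5, Hsp90b1, Dnajc3, Dnajb11, Dnajb9, Pdia6 and Pdia4 were higher. Pdia5 and Dnajc1, which belong to neither the lectins nor their partner, were lower too. This arrangement was seen after the values were known and was not tested as a group.

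In ER-associated degradation, which returns misfolded protein to the cytosol for the proteasome, Herpud1 rose and Edem1 did not pass. Herpud1, a membrane scaffold of the degradation complex, read 7.94, 7.90 and 7.99 in wild-type and 8.45, 8.38 and 8.39 in knockout samples, a difference of 0.46 ± 0.05 (SE) with an adjusted p of 0.00198. Edem1, a lectin-like mannosidase that marks glycoproteins for removal, overlapped between genotypes at -0.06, with an adjusted p of 0.393.

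**Figure D2:**
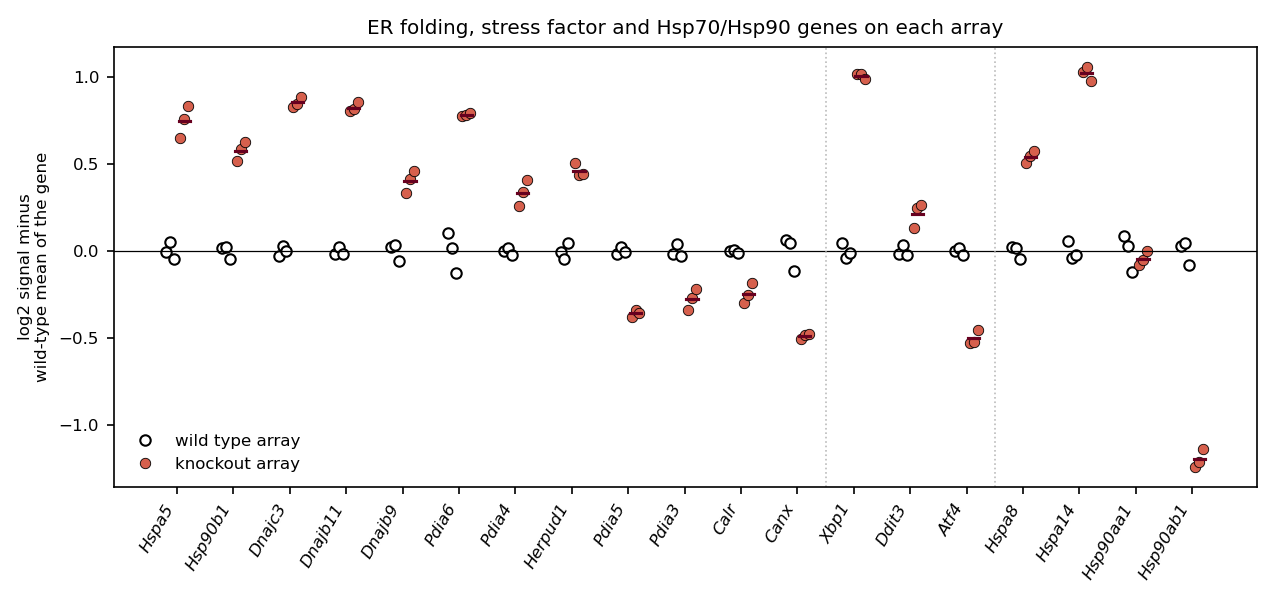
Log2 signal of 19 member genes on each array minus that gene's wild-type mean (vertical axis); open circles are the 3 wild-type arrays, filled circles the 3 knockout arrays and short bars the knockout means. From left to right the dotted lines part the ER genes, the stress transcription factors and 4 Hsp70 and Hsp90 genes. All but Hsp90aa1 show no overlap between genotypes.

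The promoters of several of these genes carry a shared sequence. RefSeq promoters on GRCm38.p6, from 250 bases before to 50 bases after each gene's start, matched 61 members, and 14 had no match. The ER stress element, bound by ATF6 and XBP1 with the factor NF-Y, was searched as CCAAT and CCACG with 9 bases between, on both strands. It stood in 6 of the 61 promoters (9.84%) and in 37 of 27025 genes in the table (0.137%). All 6 were among the 15 ER members: Hspa5, Hsp90b1, Dnajc3 and Pdia6, which rose, and Canx and Calr, which fell. The element therefore occurred in genes of both directions. The rule picked genes of the response that ATF6 and XBP1 drive. The higher share among members is thus no independent result, here or for the related element below. The windows below hold 20 bases on either side of the element, on the strand of the gene, 5′ to 3′. Capitals mark the fixed letters, which read CGTGG and ATTGG where the element lies on the opposite strand. They are shown because the same letters precede genes that rose and genes that fell. The Hspa5 window is chr2:34772005-34772063 on the plus strand, the Dnajc3 window chr14:118937807-118937865 on the plus strand and the Pdia6 window chr12:17266471-17266529 on the plus strand. The Hsp90b1 window, the nearer to the start of a pair, is chr10:86705513-86705571 on the minus strand, the Canx window chr11:50325780-50325838 on the minus strand and the Calr window chr8:84847055-84847113 on the minus strand. Their elements begin 65 (Hspa5), 105 (Dnajc3), 98 (Pdia6), 107 (Hsp90b1), 145 (Canx) and 162 (Calr) bases before the start.
Hspa5: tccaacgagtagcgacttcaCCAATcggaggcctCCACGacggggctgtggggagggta
Dnajc3: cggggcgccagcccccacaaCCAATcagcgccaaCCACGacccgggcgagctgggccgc
Pdia6: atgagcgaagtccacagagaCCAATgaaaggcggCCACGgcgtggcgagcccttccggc
Hsp90b1: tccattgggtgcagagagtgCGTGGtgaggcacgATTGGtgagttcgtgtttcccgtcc
Canx: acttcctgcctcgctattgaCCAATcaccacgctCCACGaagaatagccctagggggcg
Calr: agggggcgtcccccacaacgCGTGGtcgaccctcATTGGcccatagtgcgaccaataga

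A related arrangement, ER stress element II, was searched as ATTGG and CCACG with 1 base between. It stood in the promoters of Herpud1 and Dnajb11, both of which rose, or 3.28% of the matched members and 0.0444% of genes in the table. The Herpud1 window, chr8:94386357-94386407 on the plus strand, holds it 52 bases before the start, with the same marking; in Dnajb11 it lies past the start and is not printed.
Herpud1: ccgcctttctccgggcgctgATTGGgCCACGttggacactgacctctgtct
The core of the heat shock element, GAA and TTC with 2 bases between, stood in 9 of the 61 promoters (14.8%), against 9.04% of genes in the table, and in 0 of the 15 ER members. The rule took heat shock genes by name, so this share is no independent result either. Of these 9 genes, which were Dnaja1, Dnaja4, Dnajb6, Dnajc5g, Hspd1, Hspb1, Hspb3, Hspb6 and Hspb8, 3 rose and 2 fell. The CHOP-ATF element, TGATG and AA with 1 base between, stood in 2 of the 61 (3.28%), Herpud1 and Hspa14, against 4.51% of genes. A match gives only the presence of these letters in the window, and binding was not measured.

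None of the 3 unfolded protein sensors passed on the deposited values in limma, while the 3 transcription factors passed, 2 higher and 1 lower. Ern1, which encodes IRE1, was dim, at 3.82, 3.53 and 3.72 in wild-type and 3.50, 4.21 and 3.59 in knockout samples, and differed by 0.08 (adjusted p 0.793). Eif2ak3, which encodes PERK, differed by 0.01 (adjusted p 0.915), and Atf6 by -0.19 (adjusted p 0.106). Knockout values of Eif2ak3 overlapped those of wild type, whereas those of Atf6, at 6.97, 7.12 and 7.20, lay below the wild-type values of 7.30, 7.32 and 7.23. After quantile normalisation Atf6 did pass as lower, at -0.28 (adjusted p 0.0268), and so it did after cyclic loess, without the dimmest 50% of probes and with a trended and robust prior (adjusted p 0.0274, 0.0197 and 0.0104). Activation of these sensors is a change in their protein and is not measured by their messenger RNA.

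Xbp1 rose the most of the 3 transcription factors. Xbp1 read 10.12, 10.03 and 10.06 in wild-type and 11.09, 11.09 and 11.06 in knockout samples, a difference of 1.01 ± 0.05 (SE), or 2.01-fold, with an adjusted p of 0.000443. The signal does not separate the messenger spliced by IRE1 from the unspliced one. Atf4, the factor whose translation PERK signalling raises, went the other way, from 10.67, 10.69 and 10.65 to 10.14, 10.15 and 10.22. Its difference was -0.50 ± 0.05 (SE), or 1.41-fold, with an adjusted p of 0.00133, and no arrays overlapped. Ddit3, which encodes CHOP, the pro-apoptotic factor downstream of ATF4, read 9.99, 10.04 and 9.98 against 10.14, 10.25 and 10.27, a difference of 0.22 with an adjusted p of 0.032. That small rise was 0.04 after quantile normalisation, with an adjusted p of 0.579. The call was lost when any array but knockout replicate 1 was left out, with differences of 0.19 to 0.23 and adjusted p of 0.0885 (wild type replicate 1), 0.0725 (wild type replicate 2), 0.0885 (wild type replicate 3), 0.1 (knockout replicate 2) and 0.0848 (knockout replicate 3).

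Among the Hsp70 and Hsp110 genes, BiP included, 7 of 10 rose, 0 fell and 3 did not pass, with a median difference of 0.48. That is 70% higher, against 29.4% of all genes and 52.8% of those with a mean signal of at least 8. Not all 10 are that bright, since Hsp110, Hspa2, Hspa12a and Hspa1l have lower means. After quantile normalisation 6 of the 10 were higher and 0 lower, against 4055 and 3200 of all 16446 genes. Hspa14, a Hsp70 that attaches to ribosomes, had the largest rise. It read 9.21, 9.11 and 9.13 in wild-type and 10.18, 10.21 and 10.13 in knockout samples, a difference of 1.02 ± 0.05 (SE), or 2.03-fold, with an adjusted p of 0.000501. Hspa9a, the older symbol of the mitochondrial Hsp70 gene Hspa9, rose by 0.57, from 12.63, 12.63 and 12.57 to 13.12, 13.18 and 13.22. The Hsp110 genes, whose products exchange the nucleotide of Hsp70, showed the same direction: Hspa4l rose by 0.48 (adjusted p 0.00347), the gene annotated Hsp110 by 0.47 (0.00269) and Hspa4 by 0.35 (0.00619). The symbol Hsp110 is shared by Hspa4 and Hsph1 in current naming, so which of them the probe reads is not settled. If it reads Hspa4, that gene was counted again under another symbol. After quantile normalisation the rise of Hspa4 was 0.10, with an adjusted p of 0.0935. Hspa2 (-0.08), Hspa12a (-0.07) and the dim Hspa1l (-0.50) did not pass, with adjusted p of 0.18, 0.768 and 0.228.

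Hspa8, the constitutive cytosolic Hsp70 HSC70, was read by a pair of probes that disagreed. The probe with the higher mean read 13.84, 13.83 and 13.77 in wild-type and 14.32, 14.36 and 14.39 in knockout samples and rose by 0.54 ± 0.05 (SE), with an adjusted p of 0.00116. The other probe read 12.03, 12.02 and 11.87 against 11.04, 11.09 and 11.08 and fell by 0.90, with an adjusted p of 0.000689. Each probe separated the genotypes without overlap, in opposite directions, and their mean differed by -0.18 with an adjusted p of 0.0492. The direction of Hspa8 was therefore not settled by these arrays, and without it 6 of 9 Hsp70 and Hsp110 genes rose.

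Of the 3 Hsp90 genes, Hsp90b1 of the ER rose, Hsp90ab1 fell and Hsp90aa1 did not pass. Hsp90ab1, the constitutive cytosolic Hsp90, read 13.69, 13.71 and 13.58 in wild-type and 12.42, 12.45 and 12.52 in knockout samples. Its difference was -1.20 ± 0.06 (SE), with a 95% confidence interval from -1.35 to -1.05, or 2.29-fold, and the adjusted p was 0.000469. Hsp90aa1, the stress-inducible cytosolic form, read 15.09, 15.03 and 14.88 against 14.92, 14.95 and 15.00, and the genotypes overlapped. It differed by -0.04 ± 0.07 (SE; adjusted p 0.679), but quantile normalisation made this -0.40 (adjusted p 0.00315) and cyclic loess -0.36. Hspd1, the mitochondrial chaperonin HSP60, read 13.72, 13.66 and 13.60 against 13.86, 13.79 and 13.77 and differed by 0.15 (adjusted p 0.0844). Quantile normalisation turned it to -0.15 (adjusted p 0.0521). Hspbap1, which binds the small heat shock protein HSPB1 and is grouped here with the cofactors, fell by 0.40, from 6.78, 6.72 and 6.76 to 6.29, 6.31 and 6.47, with an adjusted p of 0.00733.

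Of 7 small heat shock proteins, 3 rose, 1 fell and 3 did not pass, with a median difference of 0.29. That is 42.9% higher and 14.3% lower, against 29.4% and 14.9% of all genes. Among genes with a mean signal of at least 8, 52.8% were higher and 17.5% lower. The median of the 7 was 0.21 after quantile normalisation and 0.12 after cyclic loess. Hspb7, a muscle form that binds filamin, read 9.17, 9.23 and 9.20 in wild-type and 9.85, 9.87 and 9.91 in knockout samples, a difference of 0.67 ± 0.05 (SE), or 1.59-fold, with an adjusted p of 0.000687. Hspb8, which works with the Hsp70 cofactor BAG3 in the autophagic removal of aggregates, read 9.928, 10.002 and 9.981 against 10.406, 10.459 and 10.557 and rose by 0.50, with an adjusted p of 0.00248. Hspb6, or HSP20, a form of smooth and striated muscle, rose by 0.30, from 7.36, 7.37 and 7.32 to 7.62, 7.72 and 7.62. In these 3 genes every knockout array lay above every wild-type array. Hspb1, or HSP27, which binds actin and is induced by heat, ran the other way, from 11.96, 11.90 and 11.85 to 11.57, 11.56 and 11.63, and fell by 0.32 with an adjusted p of 0.00755. Hspb2 was at -0.24 (adjusted p 0.0654), which became -0.33 (adjusted p 0.0239) after quantile normalisation. Hspb3 and Hspb9 were dim, with differences of -1.26 ± 0.61 and 0.29 ± 1.10 (SE). Hspb3 read 0.90, 3.18 and 2.33 on the knockout arrays, a spread of a kind not seen in the 4 small heat shock genes that passed.

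The 37 J-domain genes held 13 that rose, 5 that fell and 19 that did not pass, with a median difference of 0.17, close to that of all genes. That is 48.6% passed, near the 44.3% of all genes. After quantile normalisation 13 of the 37 were higher and 11 lower, against 4055 and 3200 of all 16446 genes. Class A genes, whose proteins resemble bacterial DnaJ most, had 2 of 4 higher and 0 lower. Class B had 4 of 12 higher and 2 lower, and class C, which shares little beyond the J domain, 7 of 21 higher and 3 lower. No set of these classes was tested against another.

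Dnajc9, a J protein that also chaperones histones, had the largest rise among J-domain genes that passed. It read 10.50, 10.39 and 10.37 in wild-type and 11.31, 11.30 and 11.28 in knockout samples, a difference of 0.88 ± 0.05 (SE), or 1.84-fold, with an adjusted p of 0.000594. The cytosolic class A genes Dnaja1 and Dnaja2, both partners of HSC70, rose as well. Dnaja1 went from 10.37, 10.30 and 10.27 to 11.16, 11.14 and 11.06, by 0.81, with an adjusted p of 0.000674. Dnaja2 went from 8.74, 8.73 and 8.68 to 9.42, 9.46 and 9.52, by 0.75, with an adjusted p of 0.00064. Dnajc4 rose by 0.58 from 6.99, 7.08 and 6.97 to 7.60, 7.56 and 7.61, with an adjusted p of 0.00122. With Dnajc3 and Dnajb11 of the ER these were the 6 largest rises among the J-domain genes that passed, and none had overlapping arrays. The other rises were Dnajb4 (0.58), the endosomal Dnajc13 (0.53), the mitochondrial Dnajc15 (0.50), Dnajb9 (0.41), Dnajc16 (0.32), Dnajc18 (0.26) and Dnajb8 (0.26). A dimmer probe of Dnajc13 differed by 0.02, with an adjusted p of 0.87. Dnajb8 lost its call without wild type replicate 2 (0.0839) or 3 (0.067) and without knockout replicate 1 (0.0559) or 3 (0.0545).

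The falls among J-domain genes were smaller than the largest rises. Dnajc12, a cochaperone of the aromatic amino acid hydroxylases, had the largest. It read 6.27, 6.24 and 6.15 in wild-type and 5.68, 5.95 and 5.74 in knockout samples and fell by 0.43 ± 0.09 (SE), with an adjusted p of 0.0148. Dnajb6, which suppresses polyglutamine aggregation, fell by 0.30 from 6.27, 6.20 and 6.26 to 5.98, 5.94 and 5.92, with an adjusted p of 0.00635. Dnajb1, the heat-inducible HSP40, read 9.17, 9.25 and 9.27 against 8.92, 8.96 and 9.03 and fell by 0.26, with an adjusted p of 0.0178. Dnajc2, which joins Hspa14 in the ribosome-associated complex, fell by 0.24 from 10.41, 10.47 and 10.42 to 10.16, 10.17 and 10.23, with an adjusted p of 0.0119, while Hspa14 rose. Dnajc1 of the ER was the remaining fall. The genotypes did not overlap in any of these 5 genes, but 4 of the calls, Dnajc1 among them, were lost when some single arrays were left out. Dnajc12 lost its call without wild type replicate 1 (adjusted p 0.0523) or 2 (0.0536), and Dnajc2 without wild type replicate 2 (0.0506). Dnajb1 lost its call without wild type replicate 2 (0.0657) or 3 (0.0555) and without knockout replicate 1 (0.0524) or 2 (0.0611). Of the J-domain genes that did not pass, Dnajb5 differed by 1.21 and Dnajc5g by -1.26, with adjusted p of 0.163 and 0.152. Both were dim: Dnajb5 read 2.91, 1.12 and 3.16 on the wild-type arrays, and Dnajc5g lay at the lowest value of its array in knockout replicate 1.

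The rule also took in 2 genes that are no chaperones. Hspg2 encodes perlecan, a heparan sulfate proteoglycan of basement membranes, and rose by 0.50 from 4.58, 4.42 and 4.41 to 5.10, 4.98 and 4.83, with an adjusted p of 0.0105. Hspc171 is an older name of Tmem208, an ER membrane protein, and differed by 0.20 with an adjusted p of 0.138. Without both, 29 of 73 members were higher and 13 lower, with a median of 0.16.

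The median difference over all genes varied with signal. It was 0.31 at mean signals of 0 to 2, 0.02 at 2 to 4 and 0.06 at 4 to 6, and from there it was larger in each brighter range: 0.12 at 6 to 8, 0.17 at 8 to 10, 0.24 at 10 to 12, 0.29 at 12 to 14 and 0.47 at 14 to 18. Of the 77 genes in the brightest of these ranges 77.9% were higher in the knockout and 3.9% lower. The 4 members there were Hspa5, Hspa8, Hsp90aa1 and Hsp90b1, of which 3 were higher, with Hspa8 counted by its brighter probe. After quantile normalisation, which gives all arrays the same distribution, the median over all genes in the ranges from 6 upwards was 0.05 to 0.09, and that at 0 to 2 was 0.10. Hspa5 then differed by 0.43, Hsp90b1 by 0.27 and the probe of Hspa8 with the higher mean by 0.25. The other Hspa8 probe differed by -0.90 as deposited and by -1.12 after quantile normalisation.

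**Figure D3:**
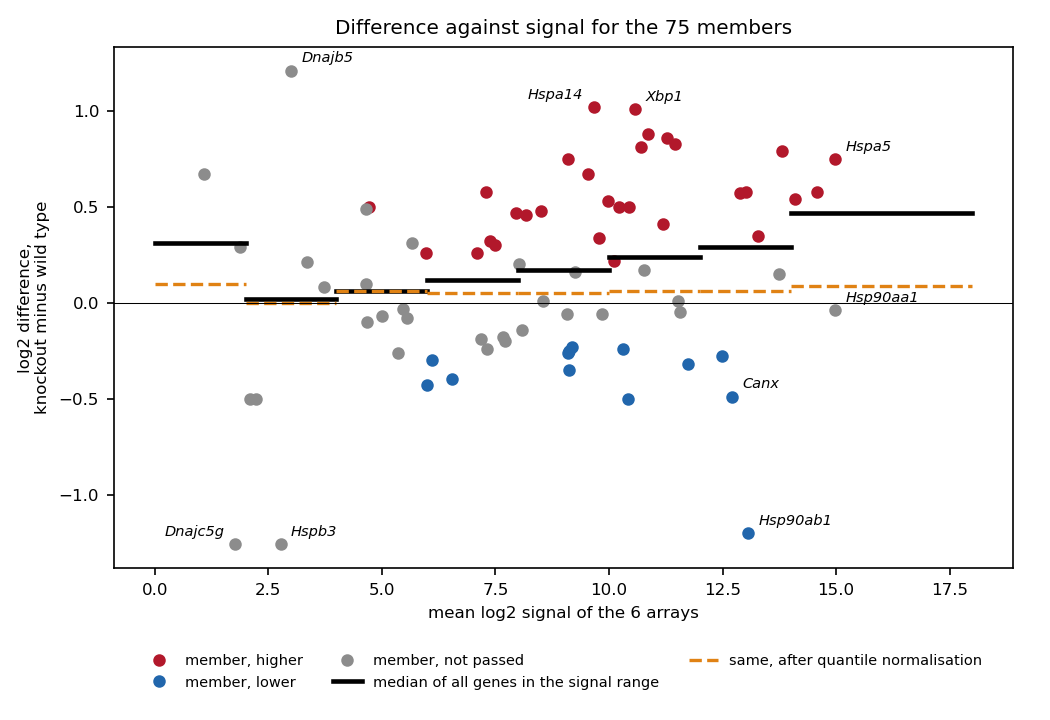
Log2 difference, knockout minus wild type (vertical axis), against mean log2 signal of the 6 arrays (horizontal axis) for the 75 members; black bars are medians of all genes within each range of signal and dashed bars the same after quantile normalisation. The black bars stand at 0.31 in the dimmest range, drop to 0.02 at signals of 2 to 4 and climb to 0.47 at 14 to 18; the dashed bars lie at 0.10 in the dimmest range and between 0.05 and 0.09 from 6 upwards.

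Quantile normalisation of the deposited values moved the median of all genes from 0.14 to 0.05, and cyclic loess moved it to 0.04. The 75 members then held 28 higher and 23 lower under either, so the share of higher genes among those called went from 69.8% to 54.9%. Of all 16446 genes, 4055 were higher and 3200 lower after quantile normalisation. Shares for bright genes alone were not worked out on that scale. Over all probes the share of calls that were higher fell too. It went from 62.6% to 52.5% after quantile normalisation and to 51.5% after cyclic loess. For the ER members the split became 8 higher and 7 lower, with a median of 0.18. The ER genes that were higher as deposited stayed higher: Dnajc3 differed by 0.67, Dnajb11 by 0.65, Pdia6 by 0.52, Herpud1 by 0.36, Dnajb9 by 0.23 and Pdia4 by 0.18. Those that were lower became more so: Canx differed by -0.69, Pdia5 by -0.49, Pdia3 by -0.48 and Calr by -0.38. Dnajc10 turned from 0.01 to -0.17, with an adjusted p of 0.031, and Edem1 went to -0.22, with an adjusted p of 0.0194. Xbp1 was 0.82 higher and Atf4 0.67 lower on this scale, and Hspa14 was 0.86 higher. Hsp90ab1, at -1.44, was the largest difference among members called on this scale.

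**Figure D4:**
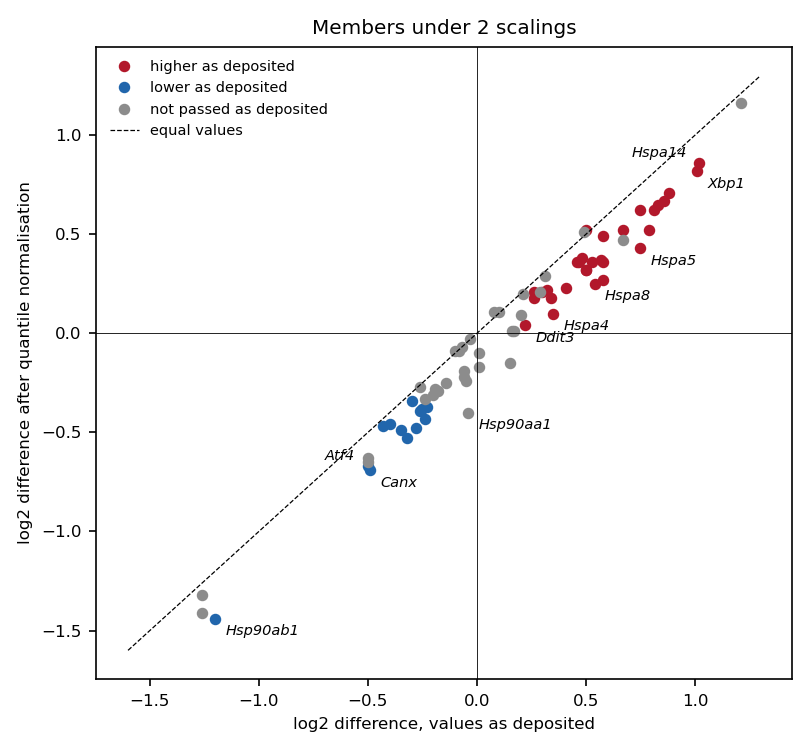
Log2 difference of the 75 members with the values as deposited (horizontal axis) and after quantile normalisation (vertical axis); colours give the call on the deposited values and the dashed line marks equal values. Most points lie below the line, Hsp90aa1 goes from -0.04 to -0.40, and Ddit3 comes down from 0.22 to 0.04.

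Genes of the same pathways outside the rule were read from lists. Their counts stand beside 29.4% of all genes higher and 14.9% lower. Among genes with a mean signal of at least 8 these shares were 52.8% and 17.5%. After quantile normalisation 4055 of all 16446 genes were higher and 3200 lower. Of 26 other ER folding enzymes and chaperones, 10 rose and 5 fell, with a median of 0.14; after quantile normalisation 9 were higher and 7 lower, with a median of 0.01. Txndc11, a thioredoxin-domain protein of the ER, rose by 1.20 ± 0.06 (SE). P4hb, which encodes the classical protein disulfide isomerase that is also a subunit of collagen prolyl 4-hydroxylase, rose by 0.72, from 13.24, 13.16 and 13.12 to 13.92, 13.86 and 13.89, with an adjusted p of 0.000775. Ppib, the ER cyclophilin, differed by -0.89 on its brighter probe and by -1.06 on a dimmer one. Prkcsh, the beta subunit of glucosidase II that trims glycans for the calnexin cycle, fell by 0.42. Gcs1 and Ugcgl1, which also act on these glycans, rose by 0.49 and 0.30 (adjusted p 0.00116 and 0.0208 in limma). After quantile normalisation Ugcgl1 differed by 0.20, with an adjusted p of 0.0507. Genes of this cycle thus moved in both directions. Serpinh1, the collagen chaperone HSP47, was not analysed here.

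Of 14 other genes of ER-associated degradation, 7 rose and 0 fell, with a median of 0.24; after quantile normalisation 4 were higher and 0 lower, with a median of 0.15. Derl3, a channel protein of this pathway that is known as an XBP1 target, read 3.94, 4.24 and 4.13 in wild-type and 6.32, 6.56 and 6.40 in knockout samples, a difference of 2.32 ± 0.11 (SE) with an adjusted p of 0.000403. Its relative Derl1 rose by 0.97, with an adjusted p of 0.00072. Of 20 genes of translocation into the ER, 13 rose and 3 fell, with a median of 0.30; after quantile normalisation 10 were higher and 7 lower, with a median of 0.15. They included translocon-associated subunits in both directions, with Ssr1 0.80 and Ssr3 0.73 higher and Ssr2 0.63 lower, and Srp54 of the signal recognition particle 0.49 lower.

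Of 19 targets and regulators of the ATF4, CHOP and ATF6 branches, 7 rose and 1 fell, with a median of -0.02; after quantile normalisation 6 were higher and 3 lower, with a median of -0.06. Creb3l3, an ER-bound factor that is best known from hepatocytes, rose by 0.72 and the stress gene Nupr1 by 0.66, while Ppp1r15b, a subunit that directs the phosphatase of eIF2 alpha, fell by 0.20. Of 21 heat shock factors and cofactors, 8 rose and 3 fell, with a median of 0.06; after quantile normalisation 6 were higher and 5 lower, with a median of -0.10. Hsf1, the main heat shock factor, read 8.07, 8.07 and 8.07 against 8.11, 8.02 and 8.15 and differed by 0.02, with an adjusted p of 0.738. Stip1, which links Hsp70 to Hsp90, rose by 0.71 and Bag3 by 0.66, whereas the Hsp70 cofactor Bag2 and the dim Itgb1bp2, which encodes the Hsp90 cochaperone melusin, fell by 0.94 and 0.75. Of 12 subunits of the cytosolic chaperonin and of prefoldin, 5 rose and 1 fell, with a median of 0.12; after quantile normalisation 4 were higher and 5 lower, with a median of 0.00. Cct2 rose by 0.77 and Pfdn5 by 0.72, and Cct7 fell by 0.46. Of 2 alpha-crystallin genes, Cryab rose by 0.19 but differed by 0.08 after quantile normalisation, with an adjusted p of 0.198.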

How the data were processed

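The deposited table holds log2 signals of 6 single-colour arrays for 23473 probes. No source names the log base, which was read from the size of the values. Per the labels, quantile normalisation had been applied, RNA came from a phenol and chloroform extraction, and Cy5 was the dye. The highest values still differ between genotypes, and the text on labelling speaks of tumours and of a microRNA kit, which goes against the stated design. Scanner, background correction and array batches were not given in the sources used here.

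The platform annotation named the probes: 16631 had 1 symbol, 6842 none and 0 several. Of the 75 members, 71 symbols are current ones in a mouse table on GRCm38.p6, and 2 genes had several probes. Differences are knockout minus wild type, from limma 3.58.1 (lmFit, eBayes; R 4.3.3) on the values as deposited. Tests were two-sided with Benjamini-Hochberg adjustment over all probes, and an adjusted p under 0.05 passed. There were 4 residual and 1.11 prior degrees of freedom, and the script was tested on simulated data. With 3 arrays per genotype, the number of arrays limits the precision.

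The members and lists were chosen with earlier results of these data known, and Dnajc5b, Dnajc5g and Hspc171 were assigned a role after the annotation was read. Named were all members of every group but the J-domain genes, and of those the 6 largest rises and falls among genes that passed without overlap (5 falls were found) and the ER genes. The other lists gave up to 2 rises and 2 falls each, with Hsf1, P4hb and Serpinh1 always included. Cell type markers, Gcs1, Ugcgl1 and the remaining J-domain genes, named or given as counts, are beyond that rule. Protein sequences were not used here. Alternatives were other normalisations, filters on dim probes, a linear offset, a trended prior, array weights, a block for the replicate number, the mean of a gene's probes and leaving out arrays. Leaving out Hspg2 together with Hspc171 was a choice made later, with the data in view. Matplotlib 3.10.9 drew the figures.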

Additional observations from a re-analysis of the deposited data

How the results depend on the processing

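Of the 43 members that passed, 31 kept their direction and stayed past the threshold under every alternative that could be fitted to them. The 30 higher members numbered between 26 and 37 over the alternatives, and 28 to 30 when an array was left out. The 13 lower members became 23 after quantile normalisation, 23 after cyclic loess and 20 with a trended and robust prior, and 8 to 12 when an array was left out. The median difference of the members, 0.17, became 0.09 after quantile normalisation and 0.08 after cyclic loess, and that of the ER members, 0.34, became 0.18 under both. Dnajc10 turned to -0.17 after quantile normalisation and -0.20 after cyclic loess, and Hspa8 to -0.18 with the mean of its probes. The trended prior and the filters on dim probes changed which genes passed through the spread and the number of probes assumed, not the differences.

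The values showed no pairing by replicate number: deviations of arrays with the same number correlated at 0.0077, -0.0014 and -0.0020. The labels do not say whether samples with the same number were handled together. With the replicate block 26 members were higher and 10 lower, with medians of 0.17 for the members and 0.34 for the ER members, and 8 calls were lost (Calr, Ddit3, Dnajb8, Dnajc1, Dnajc2, Dnajc16, Dnajc18 and Pdia3) and 1 gained (Dnajc5g, at -1.26 with an adjusted p of 0.0306).

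Signals near an array's lowest value limit the dim genes: 9 members had a mean signal under 4, 3 members lay at the lowest value of at least 1 array, and 0 of these passed in limma on the deposited values with the plain prior and no block (0 at an unadjusted p under 0.05). With the trended and robust prior Dnajb5 and Hspb3 passed.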
